A study of Salvia miltiorrhiza with 5 samples.

Results

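The unigenes described here are the cytochrome P450 candidates that the study listed for tanshinone synthesis in *Salvia miltiorrhiza* hairy roots. A unigene is a transcript assembled from the reads without a genome. The study's list holds 45 P450 unigenes. It was drawn up on measured values of these same libraries: its P450 unigenes were over 2-fold above the control in an elicited library and were co-expressed with *KSL1*, *CPS1* or *CYP76AH1*, 3 genes of the tanshinone pathway. Leaving out the 2 unigenes that the study's pathway list names *CYP76AH1* and *CYP76AH3* gave 43 members of the 55588 unigenes in the assembly. Because fold changes and co-expression in these libraries chose the members, every count of members over 2-fold, by order of libraries or by likeness is a description. No test is given, and nothing is read from such counts.

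The hairy roots were cultures grown from leaf sections infected with a disarmed *Agrobacterium tumefaciens* strain, C58C1 (pRi A4). The 5 libraries came from roots given yeast extract (YE) for 12 h (YE-12h) or 1 h (YE-1h), roots given 0.1 mM methyl jasmonate (MeJA) for 6 h (MeJA-6h) or 1 h (MeJA-1h), and untreated roots taken at 0 h (control). All grew in shake flasks before treatment. MeJA is a plant hormone of wounding and defence and was added in ethanol. YE is a preparation from yeast that plant cells sense much as they sense a microbe, and its final dose is not given in the sources used here.

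Each condition had 1 library, made from the mixed RNA of 3 cultures, so no difference has a replicate check and no p-value is given. Elicitor, time in the medium, handling and the ethanol solvent cannot be told apart, since the control was taken at 0 h. The 4 comparisons with the control share that 1 library. In such bulk RNA, fewer cells of a kind and less RNA in each cell cannot be told apart. Unigene names carry no gene names apart from the study's lists, so tissue markers were not analysed here. Counted read pairs summed to between 13395770 and 20358510 per library. A library with 0 reads of a unigene was set to 3 reads in a fold change, which is then a bound, and one with 1 to 3 reads was used as it stands. For a unigene of 1 kb, 3 reads are an RPKM (reads scaled to the unigene's length and the library's total) of 0.147 to 0.224.

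P450s are haem enzymes of the endoplasmic reticulum that insert oxygen into small molecules, and plants carry very large families of them. In *S. miltiorrhiza*, CPS1 and KSL1 turn the diterpene precursor geranylgeranyl diphosphate into miltiradiene, CYP76AH1 oxidises miltiradiene to ferruginol, and CYP76AH3 oxidises ferruginol further. Tanshinones are the red quinones that follow from these products, and other P450s are needed on the way. A P450 is named by a family number, a subfamily letter and a gene number, as in CYP71B35. The names used here come from the study's annotation, in which unigenes were matched with known proteins of other plants, and were not checked by sequence. A name therefore marks the closest known protein and not an established role in *S. miltiorrhiza*. The 2 unigenes left out show this, since both carry the name CYP76C2 on the P450 list.

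The members carried 23 annotation names in 11 families. CYP71 held 23 unigenes and CYP72 held 8. CYP76, CYP93 and CYP716 held 2 each, and CYP81, CYP91, CYP706, CYP707, CYP714 and CYP724 held 1 each.

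Members above the control at all numbered 40 of 42 in YE-12h, 43 of 43 in YE-1h, 24 of 41 in MeJA-6h and 29 of 42 in MeJA-1h. In YE-12h, 34 of the 42 members with a fold change were over 2-fold above the control, against 4.64% of all unigenes with one. In YE-1h it was 35 of 43, against 7.96% of all unigenes. MeJA-6h had 4 of 41 over 2-fold, against 7.05% of all unigenes. MeJA-1h had 6 of 42, against 7.77%. No member was under 0.5-fold in either YE library, where 7.24% of all unigenes were so in YE-12h and 8.03% in YE-1h. There were 2 members under 0.5-fold in MeJA-6h, against 13.6% of all unigenes, and 2 in MeJA-1h, against 12.3%. Members with no fold change had 3 reads or fewer in both libraries.

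The median log2 fold change of the members was 1.90 in YE-12h, 1.88 in YE-1h, 0.07 in MeJA-6h and 0.22 in MeJA-1h. For all unigenes with a fold change, the medians ran from -0.28 to -0.16. RPKM was scaled by library totals alone, and the cause of these medians was not tested. Scaling by edgeR's TMM factors adds 0.161 in YE-12h, 0.145 in YE-1h, 0.239 in MeJA-6h and 0.277 in MeJA-1h to each log2 value. With it, members above the control numbered 30 in MeJA-6h and 36 in MeJA-1h, members over 2-fold in MeJA-1h numbered 11 in place of 6, and no call over 2-fold was lost. All 43 members were over 2-fold in at least 1 YE library, 26 of them in both. In a MeJA library 7 were so, and 3 in both. The shares of all unigenes over 2-fold in either or both libraries of an elicitor were not computed, so these joint counts are only described. The map of fold changes shows both YE columns red down most of its length and both MeJA columns near white.

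**Figure D1:**
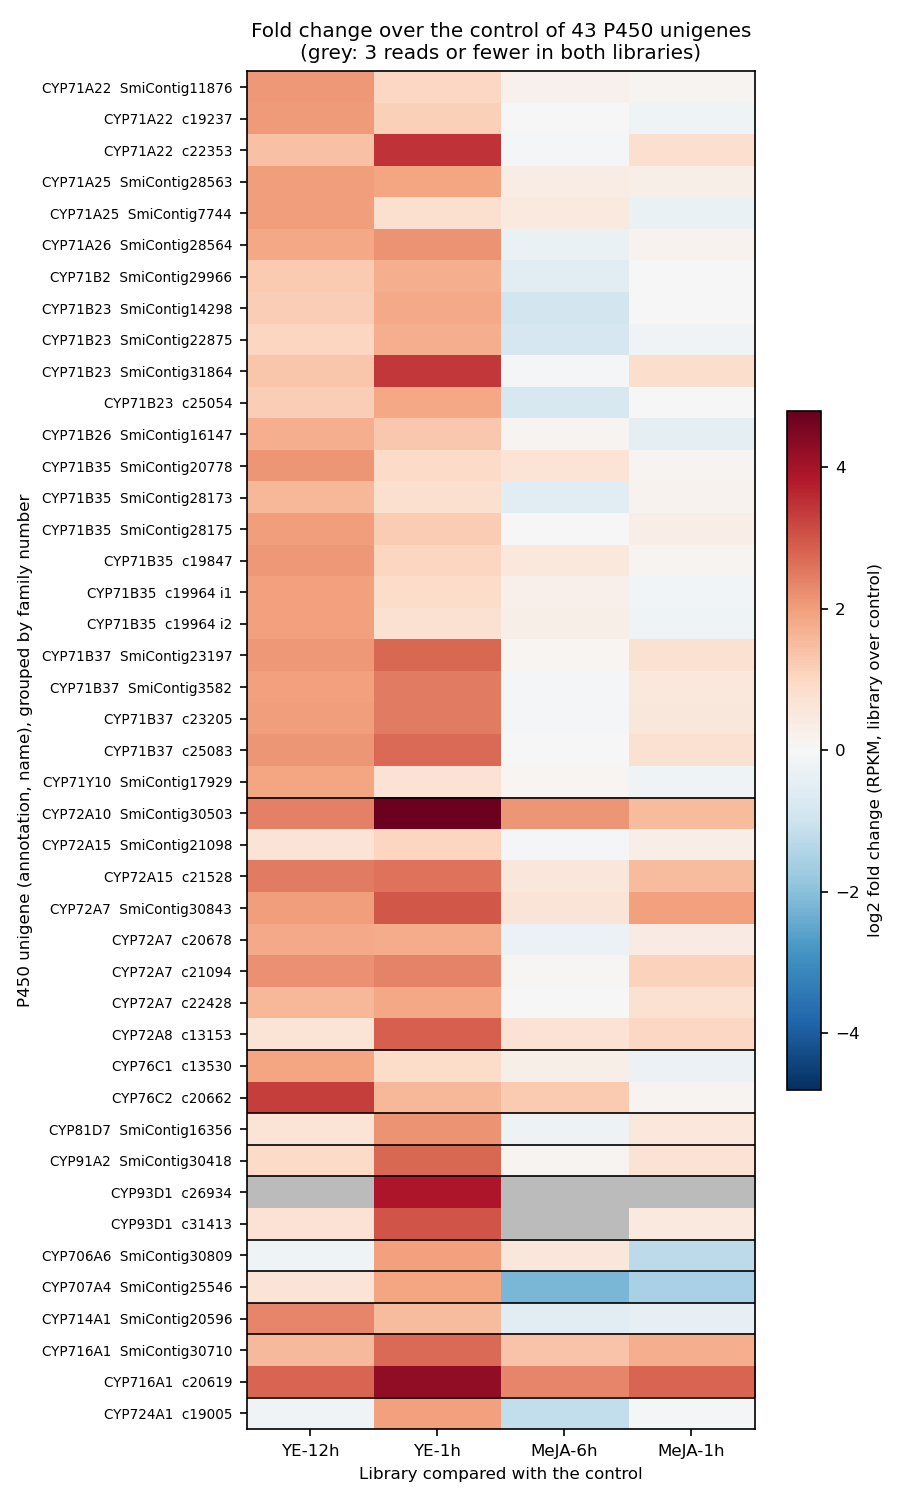
Log2 fold change over the control (RPKM ratio, colour scale) of each of the 43 P450 unigenes in YE-12h, YE-1h, MeJA-6h and MeJA-1h, with 1 library each. Rows are grouped by family number with lines between families. Every row is over 2-fold (log2 over 1) in at least 1 YE column, and only 7 rows are so in a MeJA column.

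The members differed in which YE library was higher, and those highest in YE-1h are called early and those highest in YE-12h late. YE-1h was the highest of the 5 libraries for 27 members and YE-12h for 16, where 22.3% of all unigenes were highest in YE-1h and 14.0% in YE-12h. No member was highest in MeJA-6h, MeJA-1h or the control. Both YE libraries stood above the other 3 in 38 members, against 8.3% of all unigenes. The lowest library was the control for 18 members, MeJA-6h for 16 and MeJA-1h for 9. The ratio of YE-12h to YE-1h was over 1 for 16 members, against 48.3% of all unigenes, and ran from 0.0906, an upper bound for a unigene with 0 reads in YE-12h, to 3.30. At the 1 time that both elicitors share, YE-1h was above MeJA-1h for 43 of 43 members, against 60.5% of all unigenes, by 1.52-fold to 10.8-fold. Since the members were chosen on values of these same libraries, these orders are only described. The shares of all unigenes beside them are no test.

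The early and late members followed the gene with which the study had listed each unigene, which the choice of members itself fixes. The 14 members listed with *CYP76AH1* were all highest in YE-12h. The 16 listed with *KSL1* and the 3 listed with both *KSL1* and *CPS1* were all highest in YE-1h. Of the 10 listed with *CPS1*, 8 were highest in YE-1h and the other 2 in YE-12h. Among the 14 listed with *CYP76AH1*, the median fold change was 4.04 in YE-12h and 1.94 in YE-1h. For the 16 listed with *KSL1* it was 1.91 in YE-12h, where 15 had a fold change, and 7.01 in YE-1h. The 10 listed with *CPS1* lay between these, with a median of 3.96 in YE-12h and 4.81 in YE-1h. In the plot of levels by library, the lines listed with *CYP76AH1* stand highest in YE-12h, those listed with *KSL1* peak in YE-1h, and those listed with *CPS1* are nearly level across both YE libraries.

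**Figure D2:**
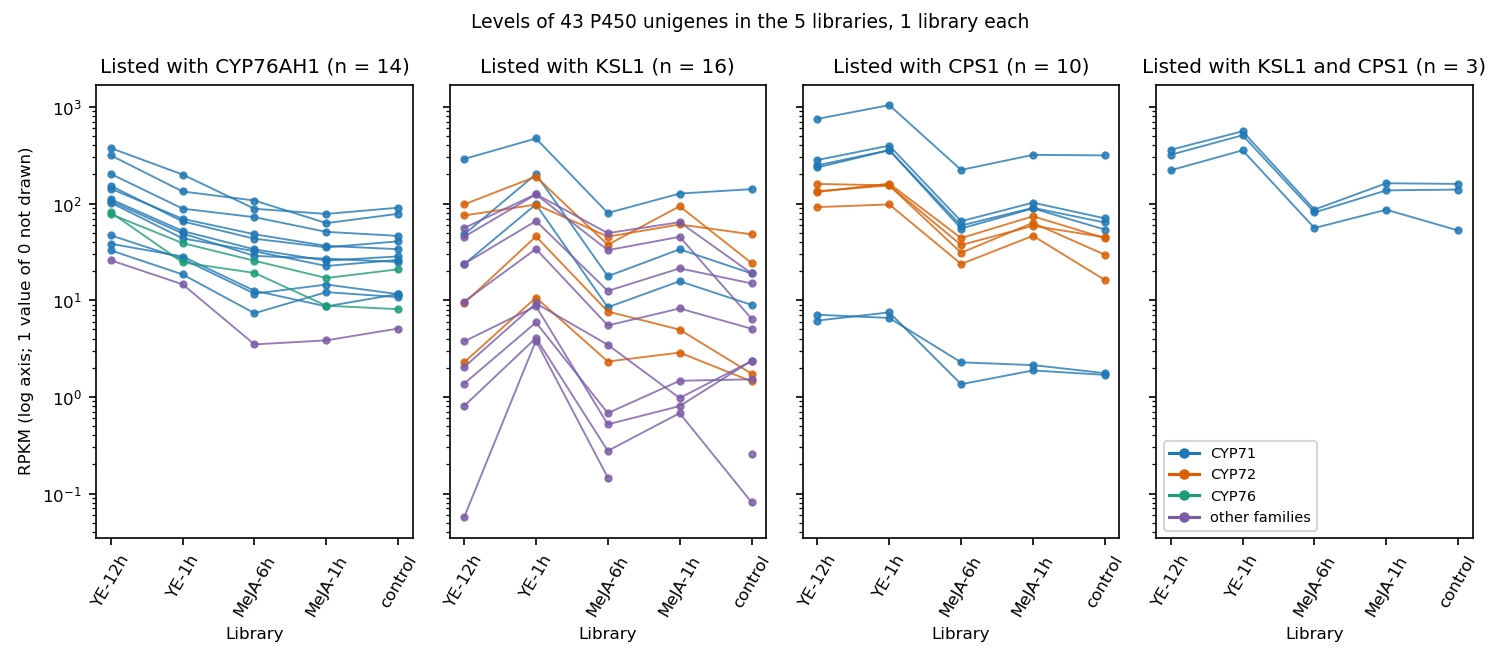
RPKM (log axis) of each P450 unigene in the 5 libraries, in panels by the pathway gene it was listed with; a line joins the values of 1 unigene and its colour gives the family. All 14 unigenes listed with *CYP76AH1* are highest in YE-12h, and all 16 listed with *KSL1* are highest in YE-1h.

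The pathway genes themselves had the same contrast. The *CYP76AH1* unigene c21531_Smj-6h_g1_i1 had an RPKM of 537 in YE-12h, 321 in YE-1h, 189 in MeJA-6h, 141 in MeJA-1h and 115 in the control. The *KSL1* unigene SmiContig32378 had an RPKM of 84.4 in YE-12h, 218 in YE-1h, 46.6 in MeJA-6h, 51.8 in MeJA-1h and 40.4 in the control. The *CYP76AH1* unigene was thus highest at the late time of YE and the *KSL1* unigene at the early time.

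*CPS1* had 2 unigenes that differed. SmiContig26967 had an RPKM of 326 in YE-12h, 556 in YE-1h, 387 in MeJA-6h, 461 in MeJA-1h and 189.9 in the control, and was over 2-fold in both MeJA libraries. SmiContig19468 had an RPKM of 436 in YE-12h, 473 in YE-1h, 109 in MeJA-6h, 154 in MeJA-1h and 121 in the control, and was over 2-fold in the YE libraries only. Likeness to a pathway unigene was measured as the root mean square difference of the log2 fold changes over the 4 elicited libraries. Co-expression with *KSL1*, *CPS1* or *CYP76AH1* in these same libraries chose the members. Small differences from these genes therefore follow from that choice and are only described. For the 10 members listed with *CPS1*, its median was 1.02 to SmiContig26967 and 0.29 to SmiContig19468. Of these 10, 9 were nearer to SmiContig19468 than to any of the 9 other unigenes of *KSL1*, *CPS1*, *CYP76AH1* and *CYP76AH3*. For the 14 listed with *CYP76AH1*, the median difference from the 3 *CYP76AH1* unigenes was 0.25 (SmiContig4954), 0.50 (c21531_Smj-6h_g1_i1) and 0.51 (SmiContig31868). From the 3 *CYP76AH3* unigenes it was 0.26 (c22489_Smj-1h_g1_i4), 0.30 (SmiContig31867) and 0.37 (SmiContig22538). These members were thus about as near to *CYP76AH3* as to *CYP76AH1*. From the 2 *KSL1* unigenes the median difference was 0.94 (SmiContig32378) and 1.08 (c22080_Smj-6h_g1_i2). For the 14 members listed with *KSL1* that had all 4 fold changes, the median was 0.85 to SmiContig32378 and 0.92 to c22080_Smj-6h_g1_i2. To the *CPS1* unigenes it was 0.97 (SmiContig19468) and 1.16 (SmiContig26967), so by the median these members were hardly nearer to *KSL1* than to SmiContig19468. Taken one by one, 6 were nearest to c22080_Smj-6h_g1_i2 and 3 to SmiContig32378. Of the others, 2 were nearest to SmiContig26967, 2 to SmiContig22538 and 1 to SmiContig19468. Medians to the *CYP76AH1* and *CYP76AH3* unigenes ran from 1.12 to 1.36.

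**Figure D3:**
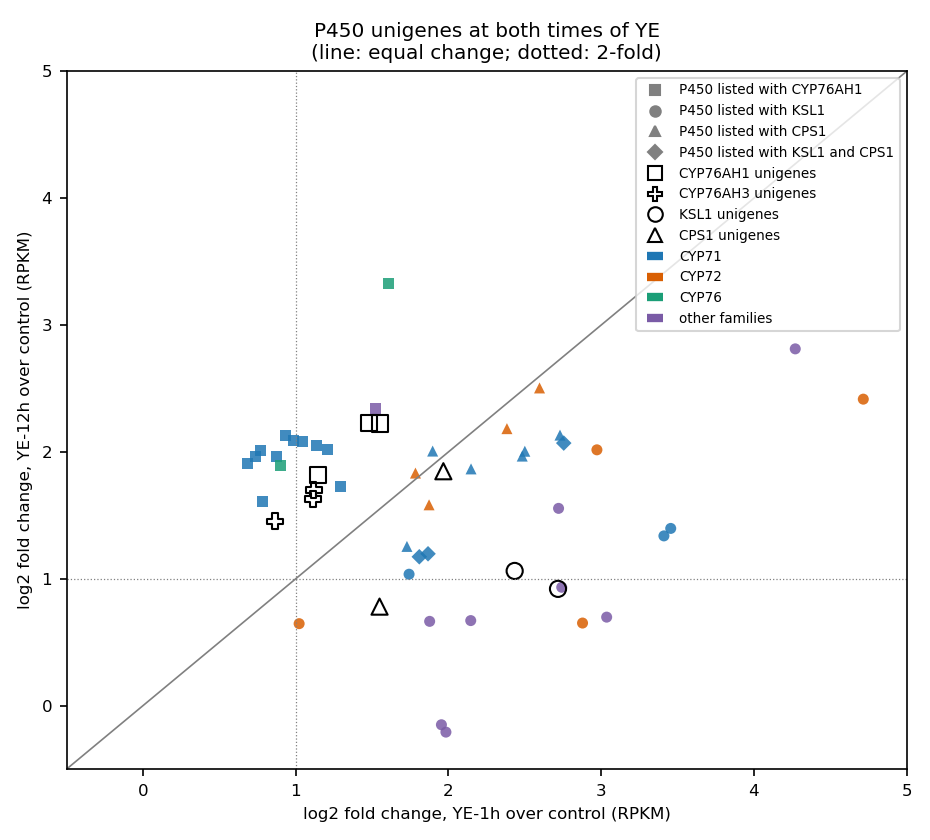
Log2 fold change over the control in YE-12h (vertical) against YE-1h (horizontal) for the 42 P450 unigenes with both values (filled, shape by the pathway gene they were listed with, colour by family) and for the unigenes of *KSL1*, *CPS1*, *CYP76AH1* and *CYP76AH3* (open). Unigenes above the line are higher in YE-12h; the 14 listed with *CYP76AH1* are all above it and the 15 drawn with *KSL1* are all below it.

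CYP71 is the largest P450 family of plants and makes many defence compounds, such as camalexin in *Arabidopsis*. All 23 CYP71 unigenes were over 2-fold in YE-12h, against 4.64% of all unigenes, and 16 in YE-1h, against 7.96%. With scaling by library totals, none was so in a MeJA library. The TMM shift of 0.277 takes SmiContig31864, c22353_Smj-1h_g1_i6 and c25083_Sye-1h_g1_i1 over 2-fold in MeJA-1h. Their log2 values there were 0.829, 0.813 and 0.725. In YE-1h the count of 16 would also rise, as with SmiContig11876 at a log2 value of 0.983 and a shift of 0.145. The 23 CYP71 unigenes made up 81.1% of the members' summed RPKM in YE-12h, 78.9% in YE-1h, 76.2% in MeJA-6h, 72.7% in MeJA-1h and 82.9% in the control. Of the 23, 12 were highest in YE-12h and 11 in YE-1h.

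The late CYP71 group held all 6 CYP71B35 unigenes. SmiContig20778, the most abundant of these, had an RPKM of 203 in YE-12h, 88.6 in YE-1h, 72.3 in MeJA-6h, 51.0 in MeJA-1h and 46.3 in the control. It was 4.38-fold over the control in YE-12h (95% counting interval 4.11 to 4.67) and 1.91-fold in YE-1h (1.78 to 2.05). This and the other intervals given with ratios are exact binomial ones from the 2 read counts and cover counting error only. The other 5 CYP71B35 unigenes were between 3.05-fold and 4.23-fold over the control in YE-12h and between 1.67-fold and 2.31-fold in YE-1h. Of these, c19964_Smj-1h_g1_i1 and c19964_Smj-1h_g1_i2 share a name but for its last part and differed by 0.080 in log2 fold change (root mean square). SmiContig28173 and SmiContig28175 had implied lengths of 434 and 417 bp. The 6 unigenes may therefore not stand for 6 separate genes.

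Other late CYP71 unigenes had like values. c19237_Sye-1h_g1_i1 (CYP71A22) had an RPKM of 375 in YE-12h, 199.65 in YE-1h, 88.3 in MeJA-6h, 78.1 in MeJA-1h and 90.6 in the control, and was the most abundant late member. SmiContig7744 (CYP71A25) had an RPKM of 315 in YE-12h, 133 in YE-1h, 108 in MeJA-6h, 62.8 in MeJA-1h and 78.3 in the control. SmiContig17929 (CYP71Y10) stood at an RPKM of 153 in YE-12h, 65.4 in YE-1h, 43.3 in MeJA-6h, 35.2 in MeJA-1h and 40.7 in the control. Over the control, the CYP71A22 unigene was 4.14-fold, the CYP71A25 unigene 4.03-fold and the CYP71Y10 unigene 3.75-fold in YE-12h. SmiContig17929 had the lowest fold change of all members in YE-1h, 1.61 (1.44 to 1.79). SmiContig16147 (CYP71B26) had an RPKM of 38.4 in YE-12h, 28.3 in YE-1h, 12.5 in MeJA-6h, 8.64 in MeJA-1h and 11.6 in the control. It was 3.32-fold (2.79 to 3.97) over the control in YE-12h. SmiContig11876 (CYP71A22) was 4.27-fold over the control in YE-12h and 1.98-fold in YE-1h. The last of the 12 was SmiContig28563 (CYP71A25), at an RPKM of 7.07 in YE-12h, 6.55 in YE-1h and 1.76 in the control, whose ratio of YE-12h to YE-1h, 1.08, had a counting interval that held 1 (0.883 to 1.31).

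The early CYP71 group held the most abundant members. SmiContig29966 (CYP71B2) had an RPKM of 752 in YE-12h, 1044 in YE-1h, 223 in MeJA-6h, 319 in MeJA-1h and 315 in the control. It was 2.39-fold (2.33 to 2.45) over the control in YE-12h and 3.31-fold (3.23 to 3.39) in YE-1h, and its MeJA-6h value was 0.708-fold (0.685 to 0.731). SmiContig14298 (CYP71B23) had an RPKM of 360.3 in YE-12h, 559.8 in YE-1h, 86.6 in MeJA-6h, 162 in MeJA-1h and 159.7 in the control. Its fold change was 2.26 in YE-12h, 3.50 in YE-1h, 0.542 in MeJA-6h and 1.02 in MeJA-1h. Of the other CYP71B23 unigenes, SmiContig22875 was 2.05-fold over the control in YE-12h, 3.35-fold in YE-1h and 0.567-fold in MeJA-6h. c25054_Sye-1h_g1_i2 was 2.29-fold in YE-12h, 3.65-fold in YE-1h and 0.579-fold in MeJA-6h. These 3 had the lowest fold changes in MeJA-6h after the CYP707A4 and CYP724A1 unigenes.

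The 4 CYP71B37 unigenes were early and alike. c23205_Sye-12h_g1_i2 had an RPKM of 282 in YE-12h, 398 in YE-1h, 65.7 in MeJA-6h, 102 in MeJA-1h and 70.3 in the control. The 4 lay between 3.91-fold and 4.38-fold over the control in YE-12h and between 5.59-fold and 6.75-fold in YE-1h, and between 1.42-fold and 1.65-fold in MeJA-1h. SmiContig28564 (CYP71A26) was scarce, with an RPKM of 6.16 in YE-12h, 7.49 in YE-1h, 1.35 in MeJA-6h, 1.88 in MeJA-1h and 1.69 in the control. It was 3.65-fold (2.58 to 5.31) over the control in YE-12h and 4.43-fold (3.14 to 6.43) in YE-1h.

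A pair of CYP71 unigenes with different names stood apart from the rest of the family. c22353_Smj-1h_g1_i6 (CYP71A22) had an RPKM of 23.6 in YE-12h, 98.1 in YE-1h, 8.46 in MeJA-6h, 15.7 in MeJA-1h and 8.95 in the control. SmiContig31864 (CYP71B23) had an RPKM of 47.9 in YE-12h, 201 in YE-1h, 17.7 in MeJA-6h, 33.6 in MeJA-1h and 18.9 in the control. In YE-1h c22353_Smj-1h_g1_i6 was 11.0-fold (9.14 to 13.3) over the control and SmiContig31864 10.6-fold (9.66 to 11.7), both above every other CYP71 unigene. They differed from each other by a root mean square of 0.0385 in log2 fold change. The next most like member differed by 0.440 from c22353_Smj-1h_g1_i6 and by 0.410 from SmiContig31864.

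CYP72 enzymes of other plants act on terpenoids, as secologanin synthase of *Catharanthus roseus* does. All 8 CYP72 unigenes were over 2-fold in YE-1h and 6 were so in YE-12h. With scaling by library totals, this family also held 4 of the 7 members over 2-fold in a MeJA library. All 4 of them were so in MeJA-1h and 1 of these in MeJA-6h as well.

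SmiContig30503 (CYP72A10) had the largest fold change of all members. Its RPKM was 9.28 in YE-12h, 45.7 in YE-1h, 7.64 in MeJA-6h, 4.96 in MeJA-1h and 1.74 in the control. The YE-1h value was 26.3-fold over the control (19.4 to 37.6), from 1476 reads in YE-1h and 39 in the control. It was 5.34-fold (3.86 to 7.73) in YE-12h, 4.39-fold (3.14 to 6.42) in MeJA-6h and 2.85-fold (2.01 to 4.23) in MeJA-1h.

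Among the 4 CYP72A7 unigenes, SmiContig30843 had the largest fold changes in YE-1h, MeJA-6h and MeJA-1h. It had an RPKM of 98.1 in YE-12h, 190.2 in YE-1h, 37.4 in MeJA-6h, 93.9 in MeJA-1h and 24.2 in the control, so that MeJA-1h nearly equalled YE-12h. Its fold change was 4.05 in YE-12h, 7.85 in YE-1h, 1.54 in MeJA-6h and 3.87 in MeJA-1h. c21094_Sye-12h_g1_i1 had an RPKM of 134 in YE-12h, 154 in YE-1h, 31.0 in MeJA-6h, 63.1 in MeJA-1h and 29.6 in the control, which is 2.13-fold (1.96 to 2.33) in MeJA-1h. The lower bound of that interval lies under 2. c20678_Smj-0h_g1_i1 had an RPKM of 159.6 in YE-12h, 154 in YE-1h, 37.2 in MeJA-6h, 58.9 in MeJA-1h and 44.8 in the control, and was the only CYP72 unigene with a ratio of YE-12h to YE-1h over 1. The counting interval of that ratio, 1.03 (0.9998 to 1.07), held 1. c22428_Smj-6h_g3_i3 was 3.0-fold over the control in YE-12h and 3.66-fold in YE-1h.

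The 2 CYP72A15 unigenes differed. c21528_Sye-1h_g1_i1 had an RPKM of 91.9 in YE-12h, 98.0 in YE-1h, 23.7 in MeJA-6h, 46.4 in MeJA-1h and 16.2 in the control. It was 5.67-fold over the control in YE-12h, 6.05-fold in YE-1h and 2.86-fold (2.35 to 3.50) in MeJA-1h. Its ratio of YE-12h to YE-1h, 0.938, had a counting interval that held 1 (0.863 to 1.02). SmiContig21098 had an RPKM of 75.3 in YE-12h, 97.7 in YE-1h, 45.5 in MeJA-6h, 60.8 in MeJA-1h and 48.1 in the control. Its largest fold change, 2.03 in YE-1h (1.91 to 2.16), was the smallest maximum of any member and lay just inside the threshold of 2. The next members inside it had 3.05 (SmiContig28173) and 3.31 (SmiContig29966); P450 unigenes outside it were not analysed here. c13153_Smj-1h_g1_i1 (CYP72A8) was scarce, with an RPKM of 2.27 in YE-12h, 10.6 in YE-1h, 2.32 in MeJA-6h, 2.87 in MeJA-1h and 1.45 in the control. It was 7.35-fold (4.84 to 12.2) over the control in YE-1h and 1.57-fold (0.948 to 2.74) in YE-12h.

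Both CYP76 unigenes, in the family that also holds CYP76AH1, were late. CYP76C enzymes oxidise monoterpenols in *Arabidopsis*. c20662_Sye-1h_g1_i2 (CYP76C2) had an RPKM of 81.1 in YE-12h, 24.6 in YE-1h, 19.2 in MeJA-6h, 8.77 in MeJA-1h and 8.08 in the control. At 10.04-fold (7.50 to 14.1) over the control, its YE-12h value was the largest of any member in that library, and its ratio of YE-12h to YE-1h, 3.30 (2.81 to 3.90), was also the largest. With MeJA the later library was higher too, at 2.37-fold (1.68 to 3.45) in MeJA-6h and 1.09-fold (0.730 to 1.66) in MeJA-1h. c13530_Sye-12h_g1_i1 (CYP76C1) had an RPKM of 77.7 in YE-12h, 39.0 in YE-1h, 25.6 in MeJA-6h, 17.0 in MeJA-1h and 20.9 in the control, which is 3.72-fold (3.05 to 4.61) in YE-12h.

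The 1 CYP714 unigene was late as well. CYP714A1 of *Arabidopsis* inactivates gibberellins. SmiContig20596 (CYP714A1) had an RPKM of 25.9 in YE-12h, 14.6 in YE-1h, 3.49 in MeJA-6h, 3.84 in MeJA-1h and 5.09 in the control. It was 5.08-fold (4.17 to 6.23) over the control in YE-12h and 0.685-fold (0.514 to 0.909) in MeJA-6h.

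Both CYP716A1 unigenes were over 2-fold in all 4 elicited libraries. CYP716A enzymes oxidise triterpenes, another terpenoid class, in several plants. c20619_Smj-6h_g1_i1 had an RPKM of 45.3 in YE-12h, 124 in YE-1h, 32.9 in MeJA-6h, 45.3 in MeJA-1h and 6.45 in the control. The fold change was 7.02 in YE-12h (5.93 to 8.39), 19.3 in YE-1h (16.4 to 23.0), 5.11 in MeJA-6h (4.29 to 6.14) and 7.02 in MeJA-1h (5.92 to 8.41). SmiContig30710 had an RPKM of 55.8 in YE-12h, 125 in YE-1h, 49.5 in MeJA-6h, 64.2 in MeJA-1h and 19.0 in the control. It was 2.94-fold over the control in YE-12h, 6.59-fold in YE-1h, 2.61-fold in MeJA-6h and 3.38-fold in MeJA-1h. SmiContig30503 (CYP72A10) was the only other member over 2-fold in all 4, and the most like c20619_Smj-6h_g1_i1 of the members.

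The CYP81, CYP91 and CYP93 unigenes were early. SmiContig16356 (CYP81D7) had an RPKM of 23.8 in YE-12h, 66.1 in YE-1h, 12.5 in MeJA-6h, 21.3 in MeJA-1h and 14.9 in the control, which is 4.43-fold (3.61 to 5.47) in YE-1h. SmiContig30418 (CYP91A2) had an RPKM of 9.68 in YE-12h, 33.9 in YE-1h, 5.49 in MeJA-6h, 8.22 in MeJA-1h and 5.07 in the control, which is 6.69-fold (5.39 to 8.47) in YE-1h. Family CYP93 includes the isoflavone and flavone synthases of legumes. Its 2 members, both named CYP93D1, were near the detection limit in every library but YE-1h. c31413_Sye-1h_g1_i1 had 7 reads in YE-12h, 35 in YE-1h, 2 in MeJA-6h, 5 in MeJA-1h and 0 in the control, and was at least 8.20-fold higher in YE-1h than in the control, taken at 3 reads. c26934_Sye-1h_g1_i1 had 0 reads in YE-12h, 31 in YE-1h, 1 in MeJA-6h, 0 in MeJA-1h and 1 in the control. Its ratio of YE-1h to the control was 14.8 on that 1 control read, with a counting interval of 3.63 to 888, and no order between the CYP93D1 unigenes is read from these values. The deposited RPKM of these unigenes was above 0 in some libraries listed with 0 reads.

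The 3 remaining members were those under 0.5-fold in a MeJA library, and all were early with YE. CYP707A enzymes break down abscisic acid in *Arabidopsis*. SmiContig25546 (CYP707A4) had 32 reads in YE-12h, 70 in YE-1h, 3 in MeJA-6h, 5 in MeJA-1h and 13 in the control, or an RPKM of 3.74 in YE-12h, 8.67 in YE-1h, 0.520 in MeJA-6h, 0.802 in MeJA-1h and 2.36 in the control. It was 3.67-fold (2.08 to 7.46) over the control in YE-1h, 0.220-fold (0.0358 to 0.712) in MeJA-6h and 0.340-fold (0.0895 to 0.958) in MeJA-1h. Both MeJA intervals reach above 0.5.

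SmiContig30809 (CYP706A6) had an RPKM of 2.03 in YE-12h, 9.28 in YE-1h, 3.46 in MeJA-6h, 0.972 in MeJA-1h and 2.35 in the control. It was 3.95-fold (2.94 to 5.40) over the control in YE-1h, 1.47-fold (1.04 to 2.11) in MeJA-6h and 0.414-fold (0.245 to 0.666) in MeJA-1h. The ratio of MeJA-6h to MeJA-1h, 3.56 (2.31 to 5.80), was the largest of any member. Family CYP724 takes part in brassinosteroid synthesis in rice. c19005_Sye-1h_g4_i1 (CYP724A1) had 13 reads in YE-12h, 52 in YE-1h, 5 in MeJA-6h, 11 in MeJA-1h and 9 in the control. It was 3.87-fold (1.98 to 9.38) over the control in YE-1h and 0.447-fold (0.124 to 1.57) in MeJA-6h, so that the MeJA-6h interval holds 1.

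MeJA-6h was above MeJA-1h for 14 of the 42 members with that ratio, against 52.1% of all unigenes. Late members made up 12 of these 14, among them SmiContig7744 (CYP71A25), at a ratio of 1.71 (1.54 to 1.91), and c20662_Sye-1h_g1_i2 (CYP76C2), at 2.18 (1.58 to 3.03). At the other end stood SmiContig30843 (CYP72A7), at 0.399 (0.369 to 0.430).

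Levels in the control ranged widely. The median control RPKM of the members was 20.9, against 4.89 for all unigenes, and 34 of 43 lay over that median. In the control, 22 members lay in the top 10% of all unigenes and 3 in the top 1%. CYP71B2 (SmiContig29966) was the highest, at percentile 99.71, and c31413_Sye-1h_g1_i1 (CYP93D1) the lowest, at 0.3652. The 5 most abundant members carried 49% of the members' summed control RPKM. The fold changes that chose the members are ratios to these same control values, so the levels are given as a description.

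Lengths differed widely, and some members had nearly the same values. The length implied by reads and RPKM was at least 1500 bp, about that of a complete plant P450, for 25 members and under 700 bp for 12, from 402 to 2314 bp. Its median was 1670 bp, against 1019 bp for all unigenes. Of the 23 names, 9 were shared by 29 unigenes. SmiContig3582 and c23205_Sye-12h_g1_i2, both CYP71B37, differed by 0.0275 in log2 fold change (root mean square). SmiContig23197 and c25083_Sye-1h_g1_i1, also CYP71B37, differed by 0.0424. Of the 27 members under shared names that had all 4 fold changes, 12 were most like a unigene of the same name. Reads shared between near copies may be counted on either, so values of such unigenes are uncertain one by one and are not independent of each other. The sequences were not compared here.

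Names did not always go with values. The 2 CYP71A25 unigenes, SmiContig28563 and SmiContig7744, differed 44.5-fold in control RPKM. Those of CYP716A1 differed by 1.23 in log2 fold change (root mean square) and those of CYP72A15 by 1.39. Within CYP71A22, c22353_Smj-1h_g1_i6 was early while SmiContig11876 and c19237_Sye-1h_g1_i1 were late.

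The study also listed 26 P450 unigenes for the phenolic acids, the other main compounds of these roots, chosen in the same way but with genes of that pathway. No unigene stood on both lists. All 26 were over 2-fold in MeJA-6h, 18 in MeJA-1h, 1 in YE-1h and 0 in YE-12h. Of the 26, 24 had a fold change in YE-12h and 24 in YE-1h. The names CYP716A1, CYP72A10 and CYP72A15 occurred on both lists. The 4 CYP72A10 unigenes on the phenolic acid list lay between 8.40-fold and 12.8-fold over the control in MeJA-6h and between 0.568-fold and 0.707-fold in YE-1h, where SmiContig30503 was 4.39-fold and 26.3-fold. Since both lists were chosen on these fold changes, their separation in the plot of both lists is fixed by that choice. Among the 66 unigenes on the study's list of tanshinone pathway genes, 26 were over 2-fold in YE-12h, 49 in YE-1h, 18 in MeJA-6h and 30 in MeJA-1h. Of the 66, 65 had a fold change in YE-12h and 65 in MeJA-6h, and several enzymes had more than 1 unigene. The shares of all unigenes beside both lists are 4.64% in YE-12h, 7.96% in YE-1h, 7.05% in MeJA-6h and 7.77% in MeJA-1h.

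**Figure D4:**
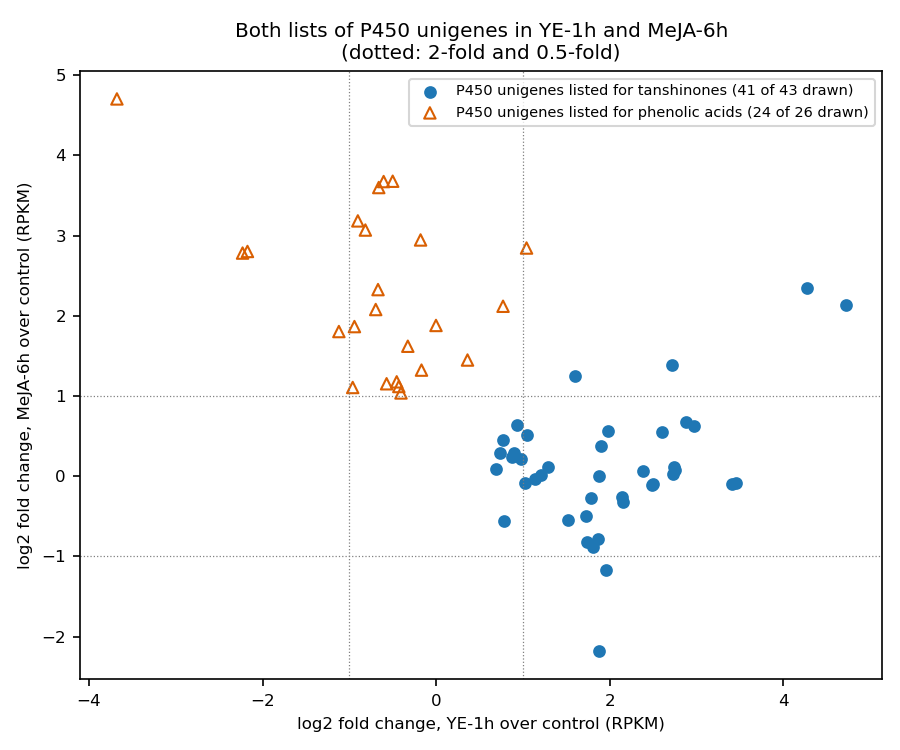
Log2 fold change over the control in MeJA-6h (vertical) against YE-1h (horizontal) for 41 of the 43 P450 unigenes listed for tanshinones (filled circles) and 24 of the 26 listed for phenolic acids (open triangles); the others have 3 reads or fewer in both libraries of a comparison. All drawn tanshinone candidates lie right of 0, and all drawn phenolic acid candidates lie over 2-fold in MeJA-6h.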

How the data were processed

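RNA sequencing of 5 hairy root libraries was analysed from deposited tables. The authors filtered the reads with NGS QC Toolkit v 2.3, assembled them with Trinity (k-mer of 25) and deposited read counts per unigene. Over all unigenes, 28 low counts of unigenes with many reads in another library were compared with the reads that RPKM implies. Of these, 16 were at least 0.1 under the implied reads and 0 were more than 0.1 over them, so decimals appear to have been dropped. The counting program is not given in the sources used here. RPKM as deposited was derived by the authors from reads, unigene length and library total.

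Groups followed the labels. A fold change is the ratio of deposited RPKM values. A library with 0 reads was set to 3 reads, which makes the ratio a bound, and none was given where both libraries had 3 reads or fewer. Calls were a fold over 2 or under 0.5. Intervals of 95% (Clopper-Pearson, on the 2 read counts given the library totals) cover counting error only. No test was run, since each condition has 1 library and the members were chosen on these values. The members, the lists and the rule for named genes were chosen with earlier results of these data known. The rule gives values for the most abundant unigene of each annotation name, for members over 2-fold in a MeJA library, under 0.5-fold or with 3 reads or fewer in any library, and for the smallest and largest maximum fold change. Other members named were chosen after their values were seen. Alternatives were TMM factors of edgeR 4.0.16, size factors of DESeq2 1.42.0 (R 4.3.3), a pseudocount of 1 RPKM, control RPKM under 1 set to 1, at least 30 reads summed over libraries, 1 unigene per annotation name, the 2 CYP76AH unigenes added back, and an interval wholly past the threshold. Other steps ran in Python 3.11.15 (scipy 1.17.1, numpy 2.4.6, matplotlib 3.10.9, pandas 2.3.3). The fold change and its interval were tested on simulated data for YE-1h over the control on 55588 unigenes. Counts were drawn with counting error only. Changes well past the thresholds were set in 200 unigenes with at least 30 expected control reads, and 200 of 200 were recovered. The interval held the true ratio for 95.6% of the 39070 unigenes with at least 30 expected control reads. This checks the calculation, and not smaller changes, scarce unigenes or spread between cultures.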

Additional observations from a re-analysis of the deposited data

Results flagged for a closer look

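SmiContig30809 (CYP706A6) lay on opposite sides of the control at both times of MeJA, with a log2 fold change of 0.56 in MeJA-6h and -1.27 in MeJA-1h. The values rest on 92 reads in MeJA-6h, 26 in MeJA-1h and 53 in the control, in 1 library each, and the difference was not tested. Reads of this unigene in the YE libraries were 69 in YE-12h and 298 in YE-1h.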

How the results depend on the processing

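No count or median reversed its direction under any alternative run. No paired analysis was possible because each condition has 1 library. With TMM or DESeq2 size factors, members over 2-fold numbered 35 in YE-12h in place of 34, 39 in YE-1h in place of 35, 4 in MeJA-6h as before and 11 in MeJA-1h in place of 6, those under 0.5-fold in MeJA-6h numbered 1 in place of 2, and those in MeJA-1h 1 in place of 2. With TMM the median log2 fold change was 2.06 in YE-12h, 2.02 in YE-1h, 0.30 in MeJA-6h and 0.50 in MeJA-1h. The pseudocount, the control minimum and the filter of 30 reads left the 4 counts over 2-fold as they were. With a pseudocount of 1 RPKM, members under 0.5-fold numbered 1 in MeJA-6h and 0 in MeJA-1h. Where the interval had to lie past the threshold, members under 0.5-fold numbered 0 in MeJA-6h and 0 in MeJA-1h. That rule also drops calls over 2-fold in all 4 elicited libraries. Lower bounds under 2 included SmiContig22875 in YE-12h (1.98), SmiContig21098 in YE-1h (1.91), c20662_Sye-1h_g1_i2 in MeJA-6h (1.68) and c21094_Sye-12h_g1_i1 in MeJA-1h (1.96). With 1 unigene for each of the 23 annotation names, members over 2-fold numbered 15 in YE-12h, 19 in YE-1h and 2 in MeJA-1h. Those higher in YE-12h than in YE-1h numbered 9, and those higher in MeJA-6h than in MeJA-1h also 9. Members higher in YE-1h than in MeJA-1h numbered 23, and those highest in YE-12h 9. These counts are out of 23 unigenes, where 34 of 42 members were over 2-fold in YE-12h and 35 of 43 in YE-1h. Shared names weigh on the full YE-12h count. All 6 CYP71B35, all 4 CYP71B37 and all 4 CYP71B23 unigenes were over 2-fold there. Of 108 single fold changes of named members, 48 moved beyond their counting interval with TMM, 48 with DESeq2 size factors, 4 with the pseudocount, 3 with the control minimum and 0 with the filter of 30 reads. Depth limits the CYP93D1, CYP707A4 and CYP724A1 unigenes, which had 13 reads or fewer in the control.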
